A study of Homo sapiens with 22 samples.

Results

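Arginine and its product ornithine feed the synthesis of the polyamines, small positively charged molecules that bind nucleic acids and are made at high rates in dividing cells. The 9 genes described here are ARG2, ODC1, AMD1, SRM, SMS, SAT1, AZIN1, OAZ1 and PADI4, and they were picked by symbol out of the 59087 gene names that each of the 2 deposited count tables holds. ARG2 entered because it was lower in the BAZ1B KO at D6 and not at D0, so its values in the BAZ1B experiment, and the KO against WT values of all 9 genes there, are given as description and without a test.

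HUDEP-2 is an immortalized human erythroid progenitor line that is kept in expansion medium at D0 and matures after a change of medium. There were 22 libraries of poly(A)-selected RNA. For H2A.X, 2 WT and 3 KO subclones were sequenced on both days, and for BAZ1B, 3 subclones of either genotype. H2A.X is a histone variant whose tail is phosphorylated at sites of DNA damage, and BAZ1B is a chromatin remodeler subunit and the kinase of a tyrosine in that tail. All cells carry the genes that immortalize the line and were expanded with SCF, erythropoietin, dexamethasone and doxycycline, WT included. The KO subclones were made with Cas9 and a pair of guides, which flank the coding region of H2A.X or the first exon of BAZ1B, and the groups differ by subclone as well as by genotype.

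In the pathway, the arginases ARG1 (cytosolic, the liver enzyme) and ARG2 (mitochondrial) cleave arginine to ornithine and urea. Ornithine decarboxylase, ODC1, turns ornithine into putrescine and is short-lived: antizyme, OAZ1, binds it and takes it to the proteasome, and the antizyme inhibitor AZIN1, an inactive relative of ODC1, draws antizyme away. AMD1 makes decarboxylated S-adenosylmethionine, from which SRM builds spermidine and SMS builds spermine. SAT1 acetylates spermidine and spermine for breakdown or export, while PADI4 uses arginine within histones, converting it to citrulline. Spermidine is also the source of hypusine, the modified lysine of the translation factor EIF5A.

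Total counts per library lay between 11910141 and 21013004 in the H2A.X experiment and between 33199408 and 41273244 in the BAZ1B experiment. The spread between libraries of a group was wider in the first, with a biological coefficient of variation of 0.239 against 0.0865. All 13 erythroid markers passed the filter on low counts in both experiments, while none of 5 lymphocyte markers did, and their summed level was at most 15.99 normalized counts in a library. Of 10 mast cell, basophil and eosinophil markers, 7 passed for H2A.X and 8 for BAZ1B. In BAZ1B libraries these summed to 27729 to 29713 (WT) and 26595 to 34211 (KO) at D0, and to 3943 to 4646 and 2615 to 5203 at D6. Of 6 megakaryocyte markers 2 passed in each experiment, and of 10 neutrophil and monocyte markers 2 and 3. The targeted gene was lower in each KO: H2AFX, the older symbol of H2AX, had a log2 fold change of -1.50 at D0 and -1.52 at D6, and BAZ1B of -0.40 and -0.38, where reads outside the deleted stretch remain countable. The column headers of 5 of the 6 H2A.X KO libraries hold the word redo and those of the WT libraries do not, so genotype and that mark cannot be told apart. The H2A.X KO D6 library of replicate 3 lacks the mark and stood apart from the other KO D6 libraries in several genes below, so some results that it changes are given with and without it. Without it, the mark and the genotype coincide in full at D6. In bulk RNA, fewer cells of a type and less RNA per cell cannot be told apart.

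Of the 9 genes, 8 passed the filter on low counts in each experiment and PADI4 did not. PADI4 had 9 reads in all 22 libraries together, at most 3 in a library, and none in 16 of them. A count of 0 allows up to 0.0727 to 0.252 CPM (reads scaled to the library total) here, depending on the depth of the library, and covers counting error only. PADI4 was therefore not tested.

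Divided by the length of the gene's exons, levels differed widely among the other 8 genes. In BAZ1B WT cells at D0, OAZ1 stood at 169 RPKM, the read count scaled to exon length and library size (range 161 to 175, n = 3), followed by ODC1 at 124, SRM at 117, AZIN1 at 84.6, SMS at 58.6, AMD1 at 26.2, SAT1 at 18.7 and ARG2 at 2.45. No neighbours in this order overlapped over the 3 libraries, and ODC1 (124 to 125) and SRM (115 to 121) were the nearest. The antizyme and the enzyme it degrades were the most abundant transcripts of the list, and the arginase the least.

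Promoter sequence is shown for the members that hold the palindrome CACGTG, the E-box bound by MYC and USF proteins, because ODC1 is a textbook target of MYC. RefSeq promoters of GRCh38.p14, from 250 bases before to 50 after a start, were found for 8 members; AZIN1 had no entry. The E-box was found in SRM, at position -199 from the start, and in ODC1, at -29 and 6 from the nearer of its RefSeq starts, and is in capitals in the windows below, all 5′ to 3′ on the minus strand, which is the strand of both genes.
SRM chr1:11060200-11060229: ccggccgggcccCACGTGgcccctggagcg
ODC1 chr2:10448024-10448053: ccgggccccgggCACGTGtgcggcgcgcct
ODC1 chr2:10447990-10448019: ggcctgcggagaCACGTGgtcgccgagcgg
The E-box was present in 7.26% of 35116 promoters of this length. The GATA-type motif AGATAA, searched on both strands, was in 10.3% of them and in none of the members' promoters. These matches describe letters in a window and not binding.

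ARG2 lies on the plus strand of chromosome 14, from 67619920 to 67651708 in hg38. In the BAZ1B experiment its normalized counts in WT cells at D0 were 229, 186 and 216, and in WT cells at D6 they were 444, 467 and 558. In KO cells they were 163, 174 and 203 at D0 and 150, 147 and 138 at D6. WT libraries thus moved upward between the days and KO libraries slightly downward, with no overlap between days in either genotype, and at D6 the highest KO library held less than the lowest WT library.

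The mean ARG2 level in WT cells went from 210 ± 21.8 (SD, n = 3) to 490 ± 60.3, a log2 difference of 1.22 with a 95% interval of 0.95 to 1.49. In KO cells it went from 180 ± 21.0 to 145 ± 6.07, a log2 difference of -0.31 (-0.59 to -0.03). At D6 KO cells stood 3.38-fold below WT cells, a log2 difference of -1.76 (-2.03 to -1.48), and at D0 the log2 difference was -0.22 (-0.50 to 0.05). The difference of these differences was -1.53 (-1.92 to -1.14). ARG2 was chosen for this pattern, and the intervals take no account of that choice, so they are no evidence for a difference. The summed erythroid markers at D6 were 1469660 to 1688320 in WT and 1241150 to 1465760 in KO, and those of 6 megakaryocyte markers, of which 3 were at 0 in either group, 825 to 958 and 241 to 446. Their part in the ARG2 difference was not tested. Exons of ARG2 overlap those of VTI1B, a SNARE gene on the other strand, over 904 bases, and whether strand was used in counting is not given in the sources used here. VTI1B itself had a log2 difference of -0.08 (-0.17 to 0.01) between KO and WT at D6.

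**Figure D1:**
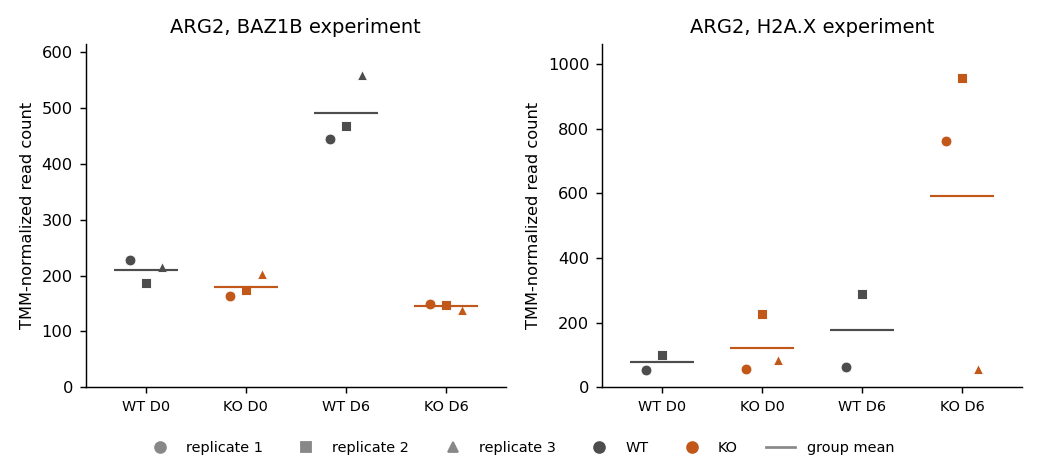
TMM-normalized read counts of ARG2 in each library (points, shaped by replicate) with the group mean (bar), for the BAZ1B experiment on the left and the H2A.X experiment on the right; axes start at 0 and differ in scale. BAZ1B WT libraries stand at 229 or less at D0 and at 444 or more at D6 while BAZ1B KO libraries lie at or below 203, and in the H2A.X experiment 2 KO libraries at D6 stand at 762 and 956 and the third at 57.9.

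Over the 12 BAZ1B libraries, the genes whose log2 level ran most like that of ARG2, out of 10922 compared, were DZIP3 (Pearson r = 0.964), SLC37A2 (0.956), MCL1 (0.953), MAP4K5 (0.929) and LRRC8A (0.929). These points share their groups of libraries, so the values describe a common pattern only. DZIP3, which encodes a RING finger ubiquitin ligase, had mean normalized counts of 501 in WT and 443 in KO at D0, and of 830 and 452 at D6. SLC37A2, a sugar phosphate carrier of the endoplasmic reticulum, stood at 50.9, 53.1, 151 and 38.2 in the same order. MCL1, the survival protein of the BCL2 family, spanned a narrower range, from 6137 in KO to 7076 in WT at D6. Over the 10 H2A.X libraries the likeness to ARG2 was 0.787 for MCL1, 0.771 for LRRC8A, 0.511 for MAP4K5, 0.498 for DZIP3 and 0.0156 for SLC37A2.

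In the H2A.X experiment, which the choice of ARG2 did not use, the gene was read with far less precision. Normalized counts were 54.6 and 99.3 in WT at D0, 61.7 and 290 in WT at D6, and 56.6, 227 and 85.5 in KO at D0. In KO at D6 they were 762, 956 and 57.9, so replicates 1 and 2 stood above all other libraries and replicate 3 near the lowest. The KO groups overlapped WT at both days. KO against WT gave a log2 fold change of 0.68 ± 1.03 (SE) at D0 (adjusted p = 0.621, edgeR) and 1.78 ± 1.03 at D6 (adjusted p = 0.183), with intervals of -1.61 to 2.97 and -0.51 to 4.07. Neither passed the threshold, and the intervals hold differences of either sign. Without KO D6 replicate 3 the D6 value was 2.36 and the adjusted p 0.0261, and D6 against D0 in KO went from 2.27 (adjusted p = 0.0797) to 2.82 (adjusted p = 0.00845). With it left out, all KO libraries at D6 hold the redo mark and no WT library does. For that KO against WT call, genotype and mark cannot be told apart.

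Comparing H2A.X KO with WT asks how transcript levels differ without the histone variant, before and during maturation. OAZ1 lies on chromosome 19 from 2269509 to 2273490 (plus strand, where JSRP1 on the other strand shares 236 exonic bases), ODC1 on chromosome 2 from 10439968 to 10448327 (minus), SRM on chromosome 1 from 11054584 to 11060020 (minus) and SMS on the X chromosome from 21940709 to 21994837 (plus). AZIN1 lies on chromosome 8 from 102826111 to 102893864 (minus), AMD1 on chromosome 6 from 110874770 to 110898879 (plus) and SAT1 on the X chromosome from 23783173 to 23786210 (plus). At D0, 4 of the 8 tested members fell in KO and none rose, where 16.7% of the 13236 genes tested were called lower and 18.4% higher. The 4 were ODC1, OAZ1, SRM and SMS, which cover the decarboxylase, its antizyme and both aminopropyl transferases. The median log2 fold change of the 8 members was -0.59, against 0.01 over all tested genes. Marker sums moved apart at D0 as well: those of the 13 erythroid markers were 426800 to 588837 in WT and 216052 to 287567 in KO. The 10 mast cell, basophil and eosinophil markers, of which 4 were at 0 in WT and 1 in KO, summed to 3052 to 3546 and 7677 to 11273, and the 6 megakaryocyte markers, 3 of them at 0 in either group, to 197 to 247 and 648 to 1402. Their part in the members' differences was not tested.

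OAZ1 normalized counts at D0 were 14314 and 21719 in WT and 10186, 9969 and 10301 in KO, a log2 fold change of -0.83 ± 0.20 (adjusted p = 0.0136). The KO libraries were close to each other and all lay below WT. ODC1 had 9366 and 12073 in WT and 6591, 7469 and 7583 in KO (-0.57 ± 0.16, adjusted p = 0.0211). For SRM, WT held 3613 and 4630 and KO 2088, 2688 and 2457 (-0.77 ± 0.21, adjusted p = 0.0205). As with OAZ1, no KO library of ODC1 or SRM reached the lower WT library. SMS had 2557 and 3656 in WT and 1826, 1859 and 1749 in KO (-0.78 ± 0.23, adjusted p = 0.0272).

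The other 4 tested members did not pass at D0. AZIN1 had 6850 and 6568 in WT and 9711, 9397 and 9466 in KO, without overlap, with a log2 fold change of 0.51 and an adjusted p of 0.0535. SAT1 had 1941 and 3164 in WT and 1700, 1622 and 1697 in KO, with a log2 fold change of -0.61 and an adjusted p of 0.0985. AMD1 had a log2 fold change of -0.03 with an interval of -0.46 to 0.40, an interval that does not reach the size of the SRM change before any correction for length.

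**Figure D2:**
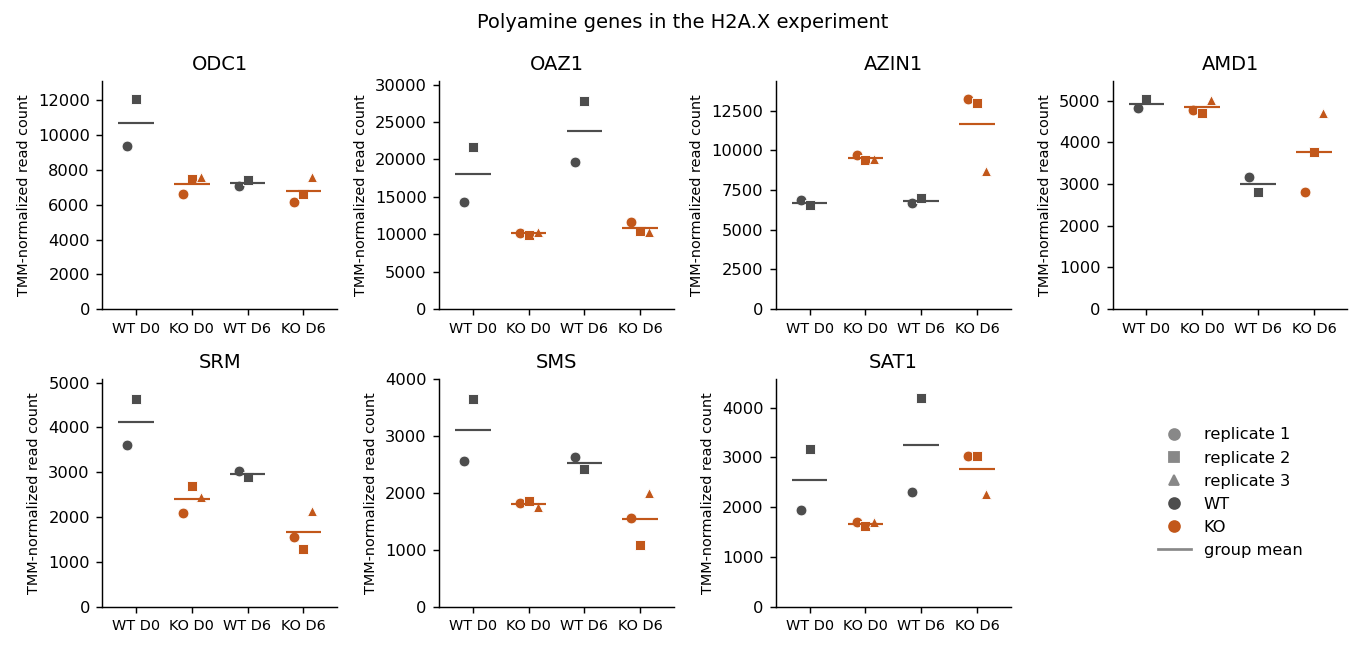
TMM-normalized read counts of 7 polyamine genes in the 10 libraries of the H2A.X experiment, with points shaped by replicate, bars at group means and axes from 0. OAZ1, SRM and SMS lie lower in every KO library than in every WT library of the same day and AZIN1 lies higher. KO replicate 3 at D6 departs from replicates 1 and 2 in AZIN1 and SAT1, and is the highest of its group in AMD1 and SMS.

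At D6, 3 members fell and 1 rose in H2A.X KO, where 20.9% of tested genes were called lower and 22.2% higher. OAZ1 had 19648 and 27862 in WT and 11666, 10497 and 10290 in KO, a log2 fold change of -1.13 ± 0.20 (adjusted p = 0.00418). SRM had 3039 and 2888 in WT and 1562, 1288 and 2140 in KO (-0.83 ± 0.21, adjusted p = 0.0119), and SMS 2627 and 2427 against 1569, 1093 and 1995 (-0.70 ± 0.23, adjusted p = 0.0328). Both transferase genes thus lay below WT at D6 as well, with the KO library of replicate 3 nearest to WT.

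AZIN1 rose in KO at D6, with 6690 and 6966 in WT and 13212, 12953 and 8722 in KO, a log2 fold change of 0.77 ± 0.18 (adjusted p = 0.00919). ODC1, with 7093 and 7437 in WT and 6138, 6589 and 7583 in KO, overlapped between genotypes (log2 fold change -0.10, interval -0.46 to 0.25). SAT1 and AMD1 also missed the threshold, with log2 fold changes of -0.22 (adjusted p = 0.514) and 0.33 (adjusted p = 0.198). The 8 members had a median log2 fold change of -0.16 at D6, against -0.01 over all tested genes. The mast cell, basophil and eosinophil markers summed to 3447 to 5727 in WT and 340 to 826 in KO at D6, while erythroid and megakaryocyte sums overlapped. Among the erythroid markers, GATA1, KLF1 and AHSP were lower in every KO library than in every WT library. TFRC was higher in every KO library, and the other erythroid markers overlapped. The part of these marker differences in the members' values was not tested.

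AZIN1 and OAZ1 act against each other, and their counts can be set against each other within a library. The ratio of AZIN1 to OAZ1 normalized counts was 0.302 to 0.479 in H2A.X WT and 0.919 to 0.953 in H2A.X KO at D0, and 0.250 to 0.341 and 0.848 to 1.23 at D6. In the BAZ1B experiment it ran from 0.831 to 1.04 over all 4 groups. The H2A.X WT libraries were therefore the ones that stood apart from the other 18. The ratio is not corrected for length, and both genes differ in length. With the length and GC correction described next, the KO against WT values of AZIN1 and OAZ1 went from 0.51 and -0.83 to 0.13 and -0.64 at D0, and from 0.77 and -1.13 to 0.28 and -0.66 at D6, so the gap between them narrowed.

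These differences moved with transcript length. Over 12017 genes, the log2 fold change of H2A.X KO against WT had a rank correlation with transcript length of 0.4996 at D0 and 0.550 at D6, while in the BAZ1B experiment it was -0.027 and 0.044 over 12408 genes. Genes are not independent replicates, and these values carry no test. The members that fell have longest transcripts of 2832 (OAZ1), 2639 (ODC1), 1703 (SMS) and 1260 bases (SRM), and AZIN1 has 4580. With each library corrected for length and GC content, ODC1 (-0.46, adjusted p = 0.0271) and OAZ1 (-0.64, adjusted p = 0.0490) passed at D0, and OAZ1 alone at D6 (-0.66, adjusted p = 0.0461). Of the 13236 tested genes, 3495 were called at D0 in this setting and 3440 at D6, so calls were common among all genes. SRM moved from -0.77 to -0.20 at D0 (adjusted p = 0.425) and from -0.83 to 0.21 at D6 (adjusted p = 0.386), and AZIN1 at D6 from 0.77 to 0.28 (adjusted p = 0.197). AMD1, with the longest transcript at 6589 bases, moved from -0.03 to -0.71 at D0 (adjusted p = 0.0578), so its value there depends on the correction. SMS kept a negative sign without passing, at -0.50 (adjusted p = 0.0834) and -0.35 (adjusted p = 0.201). The correction used the length and GC content of each gene's longest annotated transcript. Which transcript the cells held was not examined, for OAZ1 included, so a gene may be corrected too much or too little. What made the libraries differ by length was not tested.

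The calls at each day also rested on few WT libraries. With WT D0 replicate 2 left out, no member was called at D0 and 77 genes were called in all, and without WT D6 replicate 2 no member was called at D6 and 152 genes in all. Each of the 4 members called at D0, and each of the 4 called at D6, kept its direction with any library left out. At D6, AMD1 gained a call without KO D6 replicate 1 (0.50, adjusted p = 0.0429), and ARG2 without KO D6 replicate 3. OAZ1 lost its call only without those WT libraries (log2 fold change -0.50 at D0 and -0.83 at D6), and the same was true of AZIN1 at D6 (0.83, adjusted p = 0.0750). ODC1 and SMS at D0 kept their calls only when WT D0 replicate 1 was left out, with adjusted p values of 0.0534 to 0.196 for ODC1 otherwise, and SMS at D6 only when KO D6 replicate 3 was. SRM lost its call at D0 without WT replicate 2 or KO replicates 1 or 3, and at D6 without either WT library (adjusted p = 0.0607 and 0.0802).

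**Figure D3:**
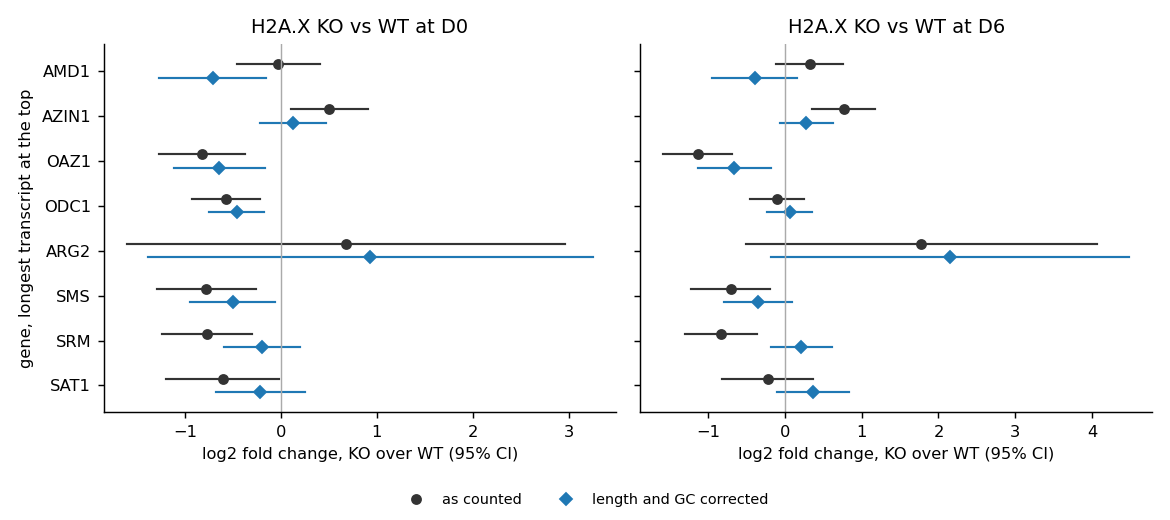
Log2 fold change of H2A.X KO over WT with its 95% interval at D0 (left) and D6 (right), as counted (circles) and after the length and GC correction (diamonds), with genes ordered from the longest transcript (AMD1, 6589 bases) to the shortest (SAT1, 1135 bases). OAZ1 stays below 0 in both, whereas SRM at D6 goes from -0.83 to 0.21.

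Whether the H2A.X KO effect differed between the days was tested as an interaction. None of the 8 members was called (1.04% of tested genes were called lower and 0.302% higher), with an unadjusted p below 0.05 in 0 of them and a call by DESeq2 in 0. ODC1 came nearest, with a difference of 0.47 (interval -0.03 to 0.97, adjusted p = 0.364). For ARG2 the interval ran from -2.05 to 4.24, which leaves differences of several fold in either direction undetectable at this spread.

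Maturation of the BAZ1B lines, whose libraries are deepest and closest to each other, gave small differences for members other than ARG2. In WT cells SAT1 rose between D0 and D6, SMS fell, and OAZ1 fell slightly, where 33.5% of the 13879 tested genes were called higher and 35.4% lower. A count of 2 members in each direction includes ARG2, which was chosen for its values in these libraries and is described only. In KO cells SAT1, AMD1 and ODC1 rose and SMS and OAZ1 fell (33.2% called higher and 34.5% lower). A call was thus common among all genes in these comparisons.

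SAT1 had normalized counts of 1827, 1686 and 1732 in WT at D0 and 2311, 2382 and 2748 at D6, a log2 fold change of 0.51 ± 0.11 (adjusted p = 0.00119). In KO it had 1672, 1962 and 1927 at D0 and 2507, 2795 and 3532 at D6 (0.67 ± 0.11, adjusted p = 0.000133). Every D6 library of either genotype held more SAT1 than every D0 library of that genotype. SMS had 4781, 4716 and 4584 in WT at D0 and 3409, 3418 and 3176 at D6 (-0.49 ± 0.04, adjusted p = 5.15e-07), and in KO 4831, 4629 and 4467 at D0 and 4191, 3844 and 3983 at D6 (-0.21 ± 0.04, adjusted p = 0.000916). The spermine synthase gene thus fell in both genotypes while the acetyltransferase gene rose.

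The remaining members differed by at most 0.17 log2 units between the days. OAZ1 fell by 0.10 in WT (adjusted p = 0.0424) and by 0.14 in KO (adjusted p = 0.00950). The WT call was lost without WT D0 replicates 1 or 3 or WT D6 replicates 2 or 3, and with the length and GC correction OAZ1 went to 0.05 in WT and 0.01 in KO, neither called. AMD1 rose by 0.17 in KO (adjusted p = 0.00295) and had -0.01 in WT. ODC1 rose by 0.15 in KO (adjusted p = 0.0269), a call that was lost without KO replicates 2 or 3 of either day, and had 0.10 in WT (adjusted p = 0.133). For AMD1 and ODC1 the difference between KO and WT in this change was not past the threshold. A call in KO alone therefore does not show that the genotypes differ. For SRM the values were -0.13 in WT (adjusted p = 0.0623) and -0.05 in KO, and for AZIN1 -0.01 and 0.04.

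In H2A.X WT cells, none of the 8 members was called between D0 and D6, where 0.839% of tested genes were called higher and 1.16% lower. ODC1 and AMD1 had an unadjusted p below 0.05 and were called by DESeq2, which makes 2 members in both counts. AMD1 had 4814 and 5049 at D0 and 3179 and 2813 at D6 (log2 fold change -0.72 ± 0.21, adjusted p = 0.106), and ODC1 had -0.56 ± 0.18 (adjusted p = 0.118). Both groups of AMD1 stood apart without overlap. D0 and D6 libraries of the same number in this experiment deviated together, and with the subclone as a block 2 members passed, AMD1 (-0.72, adjusted p = 0.0426) and ODC1 (-0.55, adjusted p = 0.0419).

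In H2A.X KO cells SAT1 was the member that passed between the days, with 1700, 1622 and 1697 at D0 and 3033, 3035 and 2261 at D6 (0.73 ± 0.24, adjusted p = 0.0433), where 14.8% of tested genes were called higher and 16.1% lower. SAT1 therefore had a positive difference in all 4 comparisons of D6 with D0, and it passed in 3 of them; in H2A.X WT it was 0.35 with an interval of -0.31 to 1.003. Leaving out any KO library other than D6 replicate 3 ended the call, with adjusted p values up to 0.119 and log2 fold changes of at least 0.66. With the subclone as a block SRM passed too (-0.56, adjusted p = 0.0342), beside SAT1 (0.72, adjusted p = 0.00329). Without KO D6 replicate 3, 5 members were called: ARG2, AZIN1 and SAT1 higher, and AMD1 and SRM lower. In that setting 4871 genes were called in all, so calls were common among all genes.

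**Figure D4:**
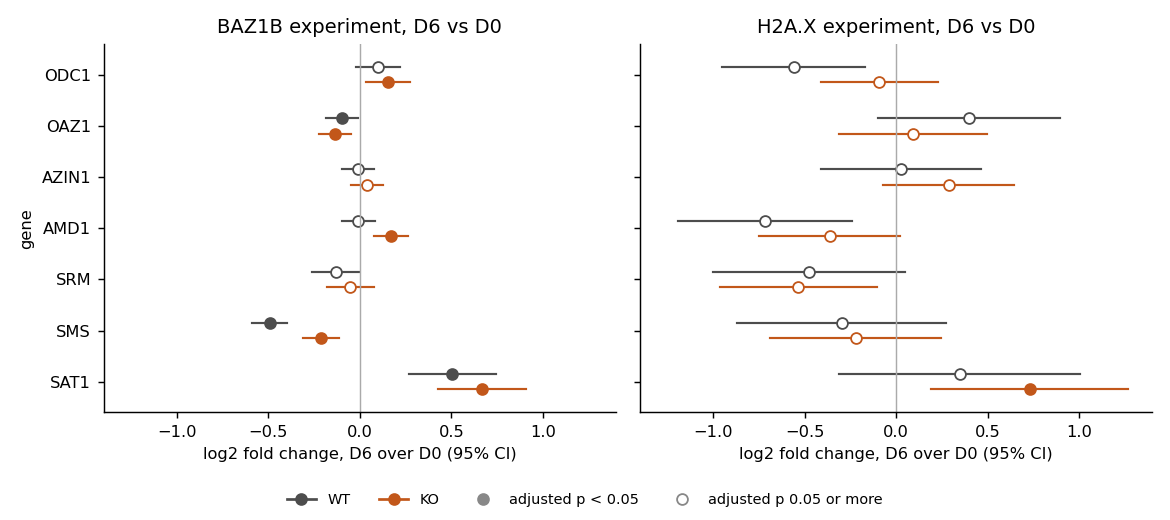
Log2 fold change of D6 over D0 with its 95% interval for 7 polyamine genes in WT and KO cells of the BAZ1B experiment (left) and the H2A.X experiment (right); filled points have an adjusted p below 0.05 in edgeR. SAT1 lies above 0 in all 4 groups, and the BAZ1B intervals are narrower than those of the H2A.X experiment.

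Values between BAZ1B KO and WT, those of ARG2 included, are description only, since the list was drawn up with this contrast in view. Counts past the threshold are given beside the share over all genes for reference, and they are no evidence about the members. At D0 the count was 0 in both directions (1.25% of all genes higher and 2.64% lower), with 0 at an unadjusted p below 0.05 and 0 by DESeq2. The differences of the 7 members other than ARG2 lay between -0.08 and 0.08 on the log2 scale. At D6 the count was 1 higher, SMS, and 1 lower, ARG2 (6.87% and 5.97% of all genes), and for the difference between the days it held the same 2 genes (1.58% and 0.893%). SMS was at 3409, 3418 and 3176 in WT and 4191, 3844 and 3983 in KO at D6, a log2 difference of 0.27 (0.17 to 0.36), with all KO libraries above WT. The difference of SAT1 was 0.25 (0.01 to 0.48), and those of ODC1, OAZ1, AZIN1, AMD1 and SRM lay between 0.02 and 0.10. The differences of the 7 other tested members were thus at most 0.27, beside the -1.76 of ARG2.

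Beyond the 9 genes, 58 genes of arginine uptake and use, polyamine regulation and transport, hypusine formation, methionine metabolism and protein arginine modification were followed, of which 43 were tested for H2A.X and 45 for BAZ1B. The list was compiled from textbook pathways, and the named genes are the 3 largest differences past the threshold in each comparison. In BAZ1B cells, 14 rose and 18 fell between D0 and D6 in WT (33.5% and 35.4% of all tested genes), and 14 rose and 14 fell in KO (33.2% and 34.5%). In H2A.X KO cells 10 rose and 9 fell (14.8% and 16.1% of all tested genes), and in H2A.X WT cells none of the 43 was called (0.839% and 1.16%), with 13 at an unadjusted p below 0.05 and 6 called by DESeq2.

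Among these genes, the largest maturation change belonged to SMOX, the oxidase that converts spermine back to spermidine. SMOX had no read in any of the 3 BAZ1B WT libraries at D0 and 325, 307 and 410 normalized counts at D6, at least 131-fold higher against a floor of 3 counts per library (adjusted p = 6.40e-09). BAZ1B KO libraries held 0.985, 0 and 1.07 at D0 and 134, 211 and 212 at D6 (adjusted p = 3.37e-08), and H2A.X KO libraries 5.07, 12.02 and 6.58 at D0 and 994, 1539 and 240 at D6 (log2 fold change 6.85 ± 0.76, adjusted p = 0.000247). In each of these groups, all D6 libraries were far above all D0 libraries. In the BAZ1B experiment at D6, WT and KO did not overlap either, and the log2 difference was -0.90 (-1.37 to -0.44).

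ARG1, the other arginase, was at or near 0 at D0 and was detected at D6. In the BAZ1B experiment it had 2.74, 1.72 and 3.53 normalized counts in WT at D0 and 79.2, 98.4 and 137 at D6 (log2 fold change 5.24 ± 0.41, adjusted p = 1.35e-07), and 0, 1.88 and 0 in KO at D0 and 22.8, 23.2 and 15.7 at D6 (adjusted p = 2.11e-05). Every KO library at D6 was below every WT library, a log2 difference of -2.35 (-3.03 to -1.66), so both arginase genes were lower in BAZ1B KO at D6. In H2A.X KO, ARG1 had 1.69, 1.72 and 2.47 at D0 and 80.8, 162 and 17.4 at D6 (5.38 ± 0.90, adjusted p = 0.00187). ASS1, which makes the precursor of arginine from citrulline, also rose in H2A.X KO cells, by 3.11 ± 0.63 (adjusted p = 0.00473). DDAH1, which breaks down methylated arginine, fell in BAZ1B cells from 7.34 ± 1.65 to 0.754 ± 1.31 in WT (adjusted p = 0.00640) and from 19.1 ± 7.06 to 5.77 ± 3.599 in KO (adjusted p = 0.0103), levels of a few reads per library. The KO call of DDAH1 was lost without KO D0 replicate 3 (adjusted p = 0.0518).

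**Figure D5:**
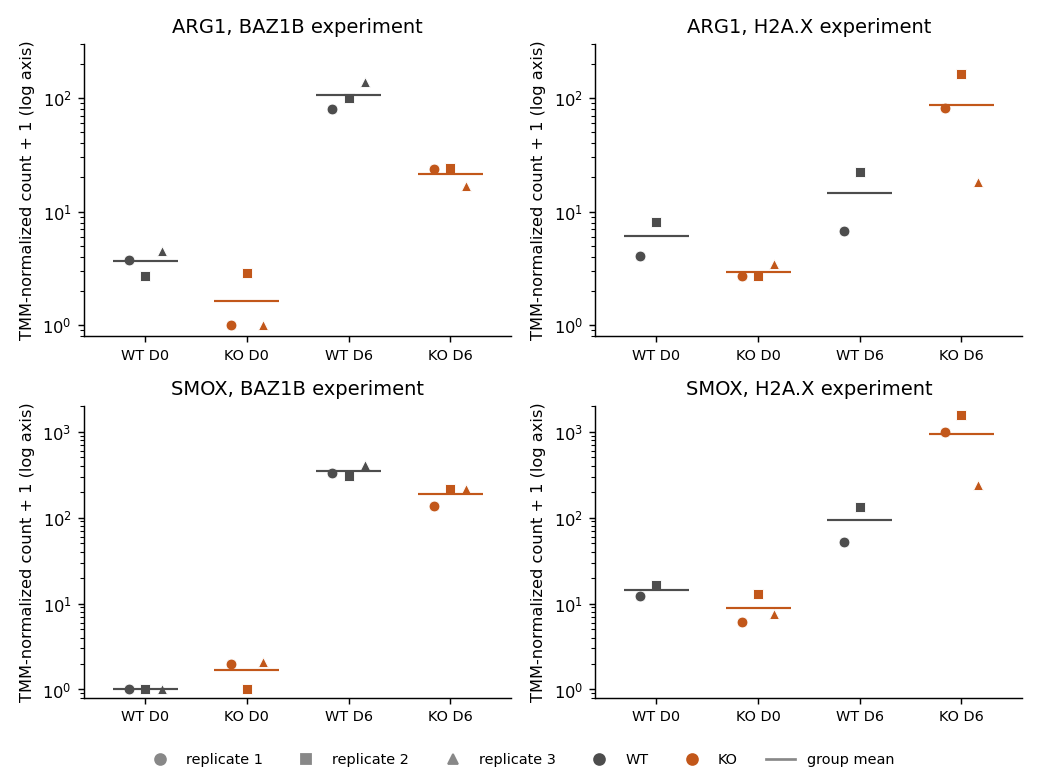
TMM-normalized counts plus 1 of ARG1 (top) and SMOX (bottom) in each library, on a log axis, for the BAZ1B (left) and H2A.X (right) experiments, with points shaped by replicate and bars at the mean. Levels at D6 lie far above those at D0 except in H2A.X WT, where ARG1 overlaps between the days (3.03 and 7.18 against 5.71 and 21.5 normalized counts). BAZ1B KO libraries at D6 lie below WT, while the means of H2A.X KO at D6 lie above WT and KO replicate 3 is the lowest of its group.

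H2A.X KO cells at D6 stood above WT in both genes. SMOX had 51.4 and 132 normalized counts in WT against the 240 to 1539 of KO (log2 fold change 3.36 ± 0.72, adjusted p = 0.00630), and ARG1 had 5.71 and 21.5 in WT against 17.4 to 162 in KO (2.74 ± 0.89, adjusted p = 0.0312). ARG1 overlapped between the genotypes through KO replicate 3. Without that library, where all KO libraries left at D6 hold the redo mark, the log2 fold change of ARG1 was 3.26 (adjusted p = 0.00294). Without WT D6 replicate 2 neither passed, at adjusted p values of 0.0626 for SMOX and 0.0787 for ARG1, and ARG1 also failed without WT replicate 1 or KO replicate 2. Summed erythroid markers at D6 were 671615 to 1139140 in WT and 767052 to 1283610 in KO, and those of 10 markers of mast cells, basophils and eosinophils, of which 3 were at 0 in either group, 3447 to 5727 and 340 to 826. Their part in these differences was not tested.

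In all, 7 of the 43 pathway genes rose and 6 fell in H2A.X KO at D6 (22.2% and 20.9% of all tested genes), and 3 rose and 10 fell at D0 (18.4% and 16.7%). None was called for the difference between the days (0.302% and 1.04% of all tested genes, 10 of the 43 at an unadjusted p below 0.05 and 5 by DESeq2). At D0 the largest were DHPS, the first enzyme of hypusine formation, with 119 and 62.2 normalized counts in WT and a mean of 23.2 ± 3.52 in KO (-1.96 ± 0.69, adjusted p = 0.0496), ATP13A3, a polyamine transporter, with a mean of 1847 ± 656 in WT and 5085 ± 308 in KO (1.46 ± 0.29, adjusted p = 0.00792), and SAT2, a relative of SAT1, at -1.401 ± 0.39 (adjusted p = 0.0212). ATP13A3 lost its call without WT D0 replicate 2, SAT2 without that library or KO replicates 2 or 3, and DHPS without any of the 5 D0 libraries. After the length and GC correction ATP13A3 still passed at 0.61 (adjusted p = 0.0243), whereas DHPS at -1.54 and SAT2 at -0.98 did not. At D6 the third gene was GAMT, the last enzyme of creatine synthesis, at -2.16 ± 0.63 (adjusted p = 0.0198), with -1.44 and no call after the correction; its call was also lost without WT replicate 1 or 2 or KO replicate 2.

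GAMT was higher in KO in the BAZ1B lines, where it is described and not tested, and the difference between the experiments was not tested. Mean normalized counts were 67.0 ± 16.7 in WT and 171 ± 60.5 in KO at D0, and 118 ± 5.73 and 298 ± 75.1 at D6, log2 differences of 1.35 and 1.33. AGMAT, a mitochondrial amidinohydrolase that acts on guanidino compounds, was at 640, 702 and 624 normalized counts in WT and at 545, 457 and 424 in KO at D0, a log2 difference of -0.46. SLC25A15, the mitochondrial ornithine carrier, stood at 2720 ± 32.3 in WT and 2724 ± 51.1 in KO at D0. Its D6 means were 2255 ± 152 and 2846 ± 108, and the log2 difference between KO and WT was 0.33 higher at D6 than at D0 (interval 0.19 to 0.48). In the whole pathway list, 1 gene was past the threshold in each direction at D0 (1.25% and 2.64% of all genes), and 4 in each direction at D6 (6.87% and 5.97%), counts from which nothing is read.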

How the data were processed

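RNA-Seq of HUDEP-2 cells was used from 2 experiments, on H2A.X and on BAZ1B, with WT and KO subclones at D0 and D6. The deposited tables hold raw counts, which the authors made from single-end reads for each gene name and did not normalize. The submitters' processing notes name STAR 2.7.0f, Subread 1.6.4 with featureCounts, DESeq2 1.22.1 and hg38. The paper names a stranded kit and the labels an unstranded one, so gene overlaps on opposite strands are noted beside results.

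Counts were analysed per experiment in R 4.3.3 with edgeR 4.0.16: filterByExpr (minimum count 10, minimum total 15), TMM normalization and the quasi-likelihood test, in a model with a coefficient for each of the 4 groups and nothing else. The filter kept 13236 and 13879 genes. Tests are two-sided, adjusted by Benjamini-Hochberg over all tested genes, and called at an adjusted p below 0.05. For a normalized count, the raw count was scaled by how far the library's TMM-adjusted total lay from the mean total, errors are SDs between subclones or SEs from the F statistic, and intervals are 95%. The reads carry no molecular identifiers, so floors from counts cover counting error only. Libraries of a group are separate subclones of 1 line, and the spread behind the p values is that between libraries of a group, pooled over both genotypes and both days. The main model has no subclone term, so D0 and D6 libraries of the same subclone count as independent.

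Members and lists were chosen with earlier results of these data known. Named genes are the members, both targets, the 3 largest pathway differences past the threshold per comparison, and the 5 genes most like ARG2 by Pearson r of log2 levels at a mean count of at least 50. Gene positions are from GENCODE on hg38 and promoters from RefSeq; 36434 names matched by symbol, 759 by an older symbol, and 21570 not. Deviations from the group mean in D0 and D6 libraries with the same number had r from 0.317 to 0.603 over the 5 H2A.X pairs. The 2 H2A.X WT pairs mirror each other and give 1 value. For the 3 BAZ1B KO pairs r was 0.158 to 0.653, and for the BAZ1B WT pairs 0.00529 to 0.168. No cutoff was set for r. The alternatives were DESeq2 1.42.0, upper-quartile normalization, no filter, leaving out each library, a replicate or subclone block, cutoffs after the study's definition of a DEG but stricter, with 0.001 applied to the adjusted p where the study names a p value, beside log2 changes of over 1.5 in size, the compared day alone, and a length and GC correction. The procedure was tested on simulated data, drawn independently for each library. These hold no pairing of days by subclone, so they cannot show how the main model handles it.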

Additional observations from a re-analysis of the deposited data

Results flagged for a closer look

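Members were looked at again where every library of a group moved opposite to every library of the other. ARG2 in the BAZ1B experiment is the first: D6 against D0 gave a log2 difference of 1.22 in WT and -0.31 in KO, each without overlap between days. The gene was chosen for this pattern, so the difference was not tested. SMS at D6 is the second: H2A.X KO libraries all lay below WT, with a log2 fold change of -0.70, and BAZ1B KO libraries all lay above WT, with 0.27. The difference between the 2 experiments was not tested. After the length and GC correction the H2A.X value of SMS was -0.35, with an adjusted p of 0.201. Groups of 2 or 3 libraries are too small for a check on single outlying libraries.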

How the results depend on the processing

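Of the members' log2 fold changes recomputed, 442 of 512 under other settings and 464 of 528 with a library left out kept their direction and their side of the threshold, or for values given as description moved little. The cause of the changes below was not tested. Members called between D6 and D0 in H2A.X WT numbered 2 under DESeq2, without the filter, with the subclone as a block and with block and length and GC correction together, against 0. In H2A.X KO they numbered 2 under DESeq2 and with the block and 3 without the filter, against 1. These settings called 4593, 5095 and 4533 genes in all. The stricter cutoffs (adjusted p below 0.001, log2 fold change above 1.5) gave 0 members in every comparison that had any, except 1, ARG2, in BAZ1B KO against WT at D6. ARG2 was chosen for its values there, so that count is no evidence. The length and GC correction gave 2 members at D0 (ODC1, OAZ1) and 1 at D6 (OAZ1) in H2A.X KO against WT. It called 3495 and 3440 of all 13236 tested genes there. With the replicate block added there were 2 at D6, ARG2 (2.56, adjusted p = 0.0316) and AMD1 (-0.61, adjusted p = 0.0425), and OAZ1 lost its call at D0 (-0.58, adjusted p = 0.0706) and D6 (-0.60, adjusted p = 0.0563). The same setting gave 4 members at D6 in BAZ1B. Upper-quartile normalization gave 1 member for the BAZ1B difference between days. With the libraries of the compared day alone, H2A.X KO against WT at D6 lost the calls of SMS (-0.67, adjusted p = 0.0888) and ARG1 (2.77, adjusted p = 0.0750). At D0 the same setting added AZIN1 (0.49, adjusted p = 0.0176) and SAT1 (-0.63, adjusted p = 0.0413).

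Replicate numbers gave r from -0.049 to 0.217 between KO and WT libraries of a day, a range that overlaps that of the pairs of days. Blocking on them gave 5 members at D0 and at D6 for H2A.X, adding AZIN1 (0.61, adjusted p = 0.0193) and ARG2 (2.23, adjusted p = 0.0325), and 0 and 2 for BAZ1B. The share over all genes under this block is not given, so nothing is read from these counts. Over all genes, calls between days in H2A.X WT were 265, against 1067 under DESeq2, 1271 without the filter and 1127 with the block. For the H2A.X difference between days they were 177, against 680 and 552.

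With each library left out in turn, members called ranged from 0 to 5 for H2A.X KO against WT at either day and for D6 against D0 in H2A.X KO, from 4 to 6 in BAZ1B KO, from 3 to 4 in BAZ1B WT, from 2 to 3 for BAZ1B KO against WT at D6 and from 1 to 2 for the BAZ1B difference. Calls over all genes moved as well. For H2A.X KO against WT at D6, 152 genes were called where no member was and 6656 where 5 were. For D6 against D0 in H2A.X KO, 2641 to 4871 genes were called. The BAZ1B counts can include ARG2, which is described only. Changes of sign gave these ranges of log2 fold change. H2A.X KO against WT ranged at D0 from -0.11 to 1.17 (ARG2) and -0.061 to 0.0072 (AMD1), and at D6 from -0.57 to 0.30 (SAT1). The H2A.X difference ranged from -0.63 to 0.0060 (OAZ1), -0.19 to 0.32 (SMS) and -0.24 to 0.12 (SRM). D6 against D0 in H2A.X WT ranged from -0.33 to 1.90 (ARG2), -0.025 to 0.046 (AZIN1) and -0.17 to 0.73 (SAT1), and in BAZ1B WT from -0.026 to 0.044 (AMD1) and -0.022 to 0.024 (AZIN1).

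Signs also changed under the length and GC correction. In H2A.X KO against WT at D6, values became 0.064 (ODC1), -0.39 (AMD1), 0.21 (SRM) and 0.37 (SAT1), and with the block 0.019, -0.61, 0.14 and 0.46. SRM became 0.41 for the H2A.X difference with and without the block, and ODC1 0.00016 without and 0.00057 with it in H2A.X KO between days. In BAZ1B between days, with or without the block, WT became 0.041 (AZIN1), 0.0464 and 0.0465 (OAZ1, without and with it) and 0.11 (AMD1), and KO 0.012 (OAZ1) and 0.080 (SRM). Without the filter AZIN1 in H2A.X WT between days was -0.023. Groups of 2 WT libraries limit the H2A.X results.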
